A study of Mus musculus with 98 samples.

Results

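Transcripts of undifferentiated mouse TBLC were followed after transcription had been blocked with actinomycin D, and the genes whose relative level fell or rose after 3 h were compared in 2 separate courses: of 13632 genes tested in both, 4263 fell in both and 3736 rose in both. TBLC are totipotent blastomere-like cells, a cultured state derived from mouse pluripotent stem cells that shares transcripts with early cleavage embryos. The comparison uses 8 of the 98 samples of the series: in the first course 2 libraries labelled TBLC at 3 h and 2 at 0 h, and in the second course 2 libraries labelled TBLC_Ctrl at 3 h and 2 at 0 h. The labels give no genotype; all of these cells grew in the medium labelled 2MYCP and carry the treatment label actinomycin D, the 0 h libraries included. Libraries taken at 1 h and 2 h complete each course at 8 libraries and enter the fits. What 2MYCP contains, the drug's dose and whether replicates came from separate cultures are not given, so a p-value here reflects only how far these libraries spread, which may be technical. Between the 2 libraries of a time point the chi-square per gene ran from 1.10 to 1.53, where counting noise alone gives about 1. RNA bound by Ythdf2 or Igf2bp3 was read in a further set of libraries, 2 immunoprecipitations (IP) and 2 inputs each, from cells kept for 3 days in the medium labelled SLM (diffTBLC), a differentiated state and not the undifferentiated one.

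Actinomycin D intercalates into DNA and stops RNA polymerases, so that what is left after some hours are transcripts made before the block. Transcripts of regulators that cells switch on and off within minutes often carry sequences, such as AU-rich elements, that recruit deadenylation and decay enzymes, while those of ribosomal proteins and metabolic enzymes are known to last for many hours. N6-methyladenosine (m6A), a mark laid down on messenger RNA by the Mettl3 and Mettl14 complex, is read by Ythdf2, which recruits the CCR4-NOT deadenylase, and by the Igf2bp proteins, which are described as protecting bound transcripts.

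No spike-in RNA is described, so a gene's change is relative to the centre of all transcripts of the same library: a transcript that decays more slowly than most rises on this scale without any synthesis. Totals ran from 17595126 to 23145666 counts per library in the first course and from 11470318 to 18335681 in the second. Values are given as normalised CPM, counts scaled to library size, and changes are log2 folds of 3 h over 0 h with the standard error (SE) of edgeR's quasi-likelihood fit. Called genes have a Benjamini-Hochberg adjusted p under 0.05, and "fell" and "rose" are used for genes called in the same direction in both courses unless 1 course is named.

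Fixed markers of the labelled state were read with no other cell state beside them, so they cannot by themselves show that state. For Pou5f1 and Zscan4c the second course is given further below. Pou5f1, the core pluripotency factor, stood at 1873 and 1870 CPM at 3 h and 1114 and 1101 CPM at 0 h in the first course, and Zscan4c, a gene of the 2-cell embryo, at 26.9 and 26.1 CPM at 3 h and 24.4 and 24.3 CPM at 0 h. Transcripts of a primitive endoderm list were counted too. Its 21 tested genes summed to 2612 and 2616 CPM at 3 h and 1818 and 1829 CPM at 0 h in the first course, and to 2527 and 2547 CPM at 3 h and 1980 and 1996 CPM at 0 h in the second. The sum includes matrix and keratin genes such as Sparc and Krt8, so it does not by itself show cells of that lineage. Among the transcription factors of the list, Gata6 had 5.60 and 6.55 CPM, Sox17 2.01 and 1.53 CPM and Gata4 14.3 and 14.2 CPM at 0 h in the first course. The 20 tested genes of a fibroblast and feeder list summed to 1692 and 1698 CPM at 3 h and 1160 and 1167 CPM at 0 h in the first course, and to 5009 and 5049 CPM at 3 h and 3531 and 3524 CPM at 0 h in the second. In bulk RNA, a change in the number of such cells and a change in RNA per cell cannot be told apart.

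On this relative scale, which put the median change of all genes at -0.006 and -0.005, about as many genes fell as rose. By library totals 28.6% of the calls were rises in the first course and 25.7% in the second. Far more genes fell by large factors than rose by them. In the first course 5256 of 14131 tested genes were lower at 3 h (37.2%) and 4902 were higher (34.7%). The second course had 4846 lower (34.9%) and 4455 higher (32.1%) of 13890. Of the 13632 genes tested in both, 4263 fell (31.3%) and 3736 rose (27.4%), while 174 were called with opposite signs. The genes that fell in both made up 81.1% of those lower in the first course and 88.0% of those lower in the second, and for the genes that rose the shares were 76.2% and 83.9%. Across genes, which are not independent replicates, the changes of the courses had a Pearson r of 0.893 and a Spearman rho of 0.859. The 3 h libraries lay below both 0 h libraries in both courses for 4912 genes (36%) and above both for 4510 genes (33.1%).

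The sizes were unequal. At least 2-fold falls in both courses were found for 1401 genes (10.3%), at least 4-fold falls for 286 and at least 8-fold falls for 48, against 7 genes that rose at least 2-fold (0.0513%). Relative to library totals the median change of all genes was -0.24 in the first course and -0.23 in the second, and relative to the ribosomal protein genes it was -0.79 and -0.71, so the number of rises depends on the scale: 1889 genes rose by library totals and 16 relative to ribosomal protein genes. Just inside the 2-fold class of falls were Cnga3, at -1.0 ± 0.21 and -1.41 ± 0.28, and Rabif, at -1.34 ± 0.05 and -1.0 ± 0.08 (first and second course). Just outside it were Tet1, at -1.0 ± 0.02 and -1.12 ± 0.04, and Nt5dc3, at -1.03 ± 0.07 and -1.0 ± 0.10.

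**Figure D1:**
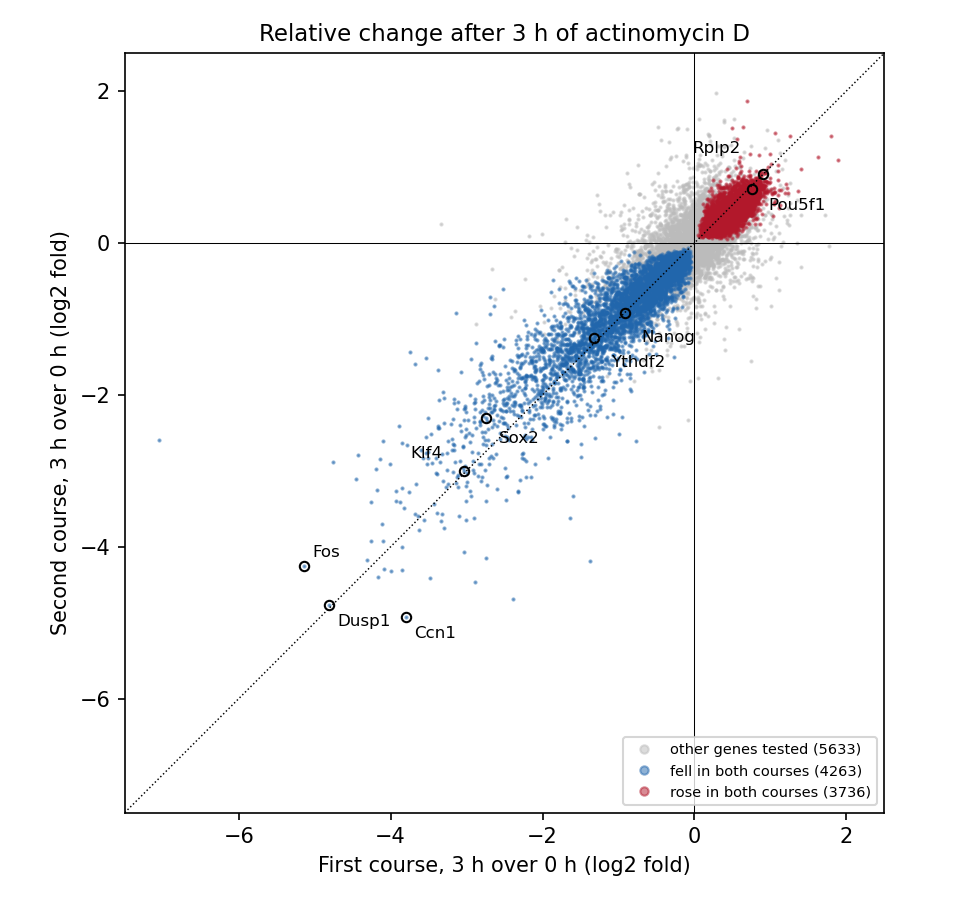
Log2 change of each gene tested in both courses, 3 h over 0 h, in the first course (horizontal) and in the second (vertical), with 4263 genes that fell in blue, 3736 that rose in red and the other 5633 in grey; the dotted line marks equal change. The falls stretch below -4 on both axes, with Dusp1, Fos and Ccn1 at the far end, while Pou5f1 and Rplp2 sit among rises of under 1.

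The fastest losses were those of a list of immediate early and AU-rich regulators. Immediate early genes are those that cells induce within minutes of a signal. The list was not made of such genes alone, and AU-rich elements are themselves tied to decay. Of 45 tested genes of this list 42 fell and none rose, 41 of the 42 by at least 2-fold. The share that fell was 93.3%, against 31.3% of all genes, of which 10.3% fell at least 2-fold. Median changes were -2.52 in the first course and -2.78 in the second, against -0.01 and -0.005 over all genes. Dusp1, a phosphatase that shuts off MAP kinases, had 0.848 and 1.30 CPM at 3 h and 29.6 and 30.3 CPM at 0 h in the first course. In the second course Dusp1 had 2.36 and 1.07 CPM at 3 h and 42.7 and 42.9 CPM at 0 h. No library at 3 h came near any library at 0 h, and the changes were -4.81 ± 0.13 and -4.77 ± 0.13 (edgeR's quasi-likelihood test, adjusted p = 5.88e-47 in the first course). Most of the loss of Dusp1 lay in the first hour: 18.5%, 4.51% and 3.58% of the 0 h level were left at 1, 2 and 3 h in the first course, and 13.6%, 4.5% and 4.00% in the second.

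Transcription factors of the same list fell as well. Fos, a subunit of the AP-1 factor, was at 0.519 and 0.104 CPM at 3 h and 11.3 and 11.7 CPM at 0 h in the first course, and at 0.471 and 0.592 CPM at 3 h and 11.4 and 9.69 CPM at 0 h in the second. Its remaining share at 1 h was 10.3% in the first course and 12% in the second. Egr1, a zinc finger factor induced through serum response elements, changed by -4.08 ± 0.11 and -4.29 ± 0.10, with 12.2% and 7.42% left at 1 h. Jun, which pairs with Fos, changed by -2.73 and -3.19, and Zfp36, an AU-rich element binding protein that promotes decay, by -2.94 and -3.34; both were picked after their values had been seen. Ccn1, a secreted matrix protein, changed by -3.80 ± 0.14 and -4.92 ± 0.09, and Socs3, the inhibitor of JAK and STAT signalling, by -3.93 ± 0.07 and -3.40 ± 0.09. Myc, the growth-promoting factor, fell to 2.07 and 1.71 CPM at 3 h, against 15.8 and 14.8 CPM at 0 h in the first course, and to 3.49 and 2.84 CPM against 26.2 and 30.3 CPM in the second. At 1 h 65.3% and 45.0% of Myc was left, and at 3 h 12.3% and 11.2%.

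Feedback inhibitors and targets of signalling pathways also lost transcripts. In the ERK list 12 of 16 genes fell and 1 rose (75% and 6.25%, against 31.3% and 27.4% of all genes), with medians of -2.26 and -2.04. Dusp6, the phosphatase specific for ERK, had 3.44 and 3.21 CPM at 3 h and 52.8 and 54.0 CPM at 0 h in the first course, and 3.02 and 3.55 CPM at 3 h and 68.0 and 65.4 CPM at 0 h in the second. Dusp5 changed by -3.49 ± 0.24 and -4.42 ± 0.19, and Spry1, an inhibitor of receptor tyrosine kinase signalling, by -3.16 ± 0.14 and -2.66 ± 0.14. These ERK genes had 3 h libraries below both 0 h libraries in each course. In the TGF-beta and BMP list 18 of 21 genes fell and 1 rose (85.7% and 4.76%), with medians of -1.38 and -1.11. Nodal, the ligand that signals through activin receptors, stood at 4.34 and 4.92 CPM at 3 h and 87.7 and 89.1 CPM at 0 h in the first course, and at 4.90 and 4.73 CPM at 3 h and 51.6 and 50.3 CPM at 0 h in the second. Bambi, a decoy receptor, changed by -3.38 ± 0.21 and -2.43 ± 0.18, Id1, a BMP target that blocks basic helix-loop-helix factors, by -2.34 ± 0.11 and -2.26 ± 0.08, and Smad6, an inhibitor of BMP signalling, by -2.48 ± 0.30 and -2.11 ± 0.25.

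Of 17 tested Wnt genes 9 fell and 3 rose (52.9% and 17.6%, against 31.3% and 27.4% of all genes). Axin2, the scaffold that turns the pathway off, had 15.7 and 15.8 CPM at 3 h and 63.8 and 59.8 CPM at 0 h in the first course and 17.2 and 19.9 CPM at 3 h and 74.9 and 79.4 CPM at 0 h in the second. Sp5, a Wnt target factor, changed by -3.33 ± 0.14 and -3.56 ± 0.11, and Rnf43, a ligase that removes Wnt receptors, by -2.41 ± 0.29 and -1.98 ± 0.42 at under 4 CPM in every library compared. Of 16 tested Notch and Hes/Hey genes 8 fell (50%) and none rose. Hes1, the oscillating repressor downstream of Notch, fell to 3.49 and 3.63 CPM at 3 h, against 50.4 and 52.4 CPM at 0 h in the first course, and to 5.28 and 5.03 CPM against 80.3 and 84.0 CPM in the second. Nrarp, a feedback inhibitor of Notch, changed by -2.52 ± 0.24 and -1.37 ± 0.30.

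The Klf and Sp factors and the large Zfp group, both zinc finger proteins, stood almost wholly on the falling side. All 20 tested genes of the Klf and Sp families fell, 16 of them at least 2-fold, with medians of -1.71 and -1.42. Of all genes 31.3% fell, 10.3% fell at least 2-fold and 27.4% rose. Klf10 changed by -3.17 ± 0.06 and -3.02 ± 0.08. Of 359 tested genes named Zfp, most of them DNA-binding factors of the C2H2 type, 314 fell and 5 rose (87.5% and 1.39%). At least 2-fold falls were found for 195 of them, and the medians were -1.19 and -1.22. Zfp105 had 1.46 and 1.56 CPM at 3 h and 27.2 and 24.5 CPM at 0 h in the first course, and 1.23 and 1.54 CPM at 3 h and 22.2 and 21 CPM at 0 h in the second. Zfp819, Zfp786 and Zfp472 changed by -3.85, -4.46 and -3.68 in the first course and by -4.31, -3.10 and -3.56 in the second. Counts of near-identical family members depend on how the authors assigned shared reads, which is not given in the sources used here.

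The core and naive pluripotency factors did not decay together. Of 27 tested genes 18 fell and 6 rose (66.7% and 22.2%, against 31.3% and 27.4% of all genes), and their mean changes spanned -3.91 to 0.77. The naive factors Klf2, Klf4 and Gbx2 fell at least 2-fold in both courses. Klf4 stood at 28.4 and 27.7 CPM at 3 h and 232 and 228 CPM at 0 h in the first course, and at 18.8 and 21.5 CPM at 3 h and 160 and 167 CPM at 0 h in the second. Klf2 had 10.9 and 10.7 CPM at 3 h and 160 and 158 CPM at 0 h in the first course, and 22.3 and 21.2 CPM at 3 h and 214 and 244 CPM at 0 h in the second. Gbx2 changed by -4.12 ± 0.12 and -3.71 ± 0.09, and Mycn, the Myc paralog of embryonic cells, by -2.92 ± 0.06 and -2.99 ± 0.07.

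The core trio of Sox2, Nanog and Pou5f1, which bind shared enhancers, changed unequally. Sox2 fell to 61.8 and 61.4 CPM at 3 h, against 409 and 415 CPM at 0 h in the first course, and to 62.3 and 58.6 CPM against 298 and 295 CPM in the second (-2.74 ± 0.03 and -2.30 ± 0.04). Nanog was at 279 and 287 CPM at 3 h and 537 and 535 CPM at 0 h in the first course, and at 167 and 167 CPM at 3 h and 307 and 326 CPM at 0 h in the second (-0.92 ± 0.02 and -0.92 ± 0.03). Pou5f1 was higher at 3 h, at 1873 and 1870 CPM against 1114 and 1101 CPM at 0 h in the first course and at 1838 and 1860 CPM against 1141 and 1126 CPM in the second (0.76 ± 0.02 and 0.71 ± 0.02), although relative to the ribosomal protein genes its mean change was -0.02. The 3 h and 0 h libraries of these 3 genes did not overlap in either course. At 1, 2 and 3 h the shares left were 63.0%, 29.7% and 14.9% for Sox2, 84.8%, 70.1% and 52.9% for Nanog and 115%, 136% and 169% for Pou5f1 in the first course. The second course gave 57.9%, 31.1% and 20.4% for Sox2, 79.1%, 64.9% and 52.9% for Nanog and 124%, 140% and 163% for Pou5f1. Zfp42, a marker of the naive state, lay between Sox2 and Nanog at -1.55 and -1.53. Esrrb, a nuclear receptor of the naive network, changed by -0.44 and -0.52, and Dppa5a, an RNA-binding protein of stem cells, by 0.84 and 0.70; both were picked after their values had been seen.

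**Figure D2:**
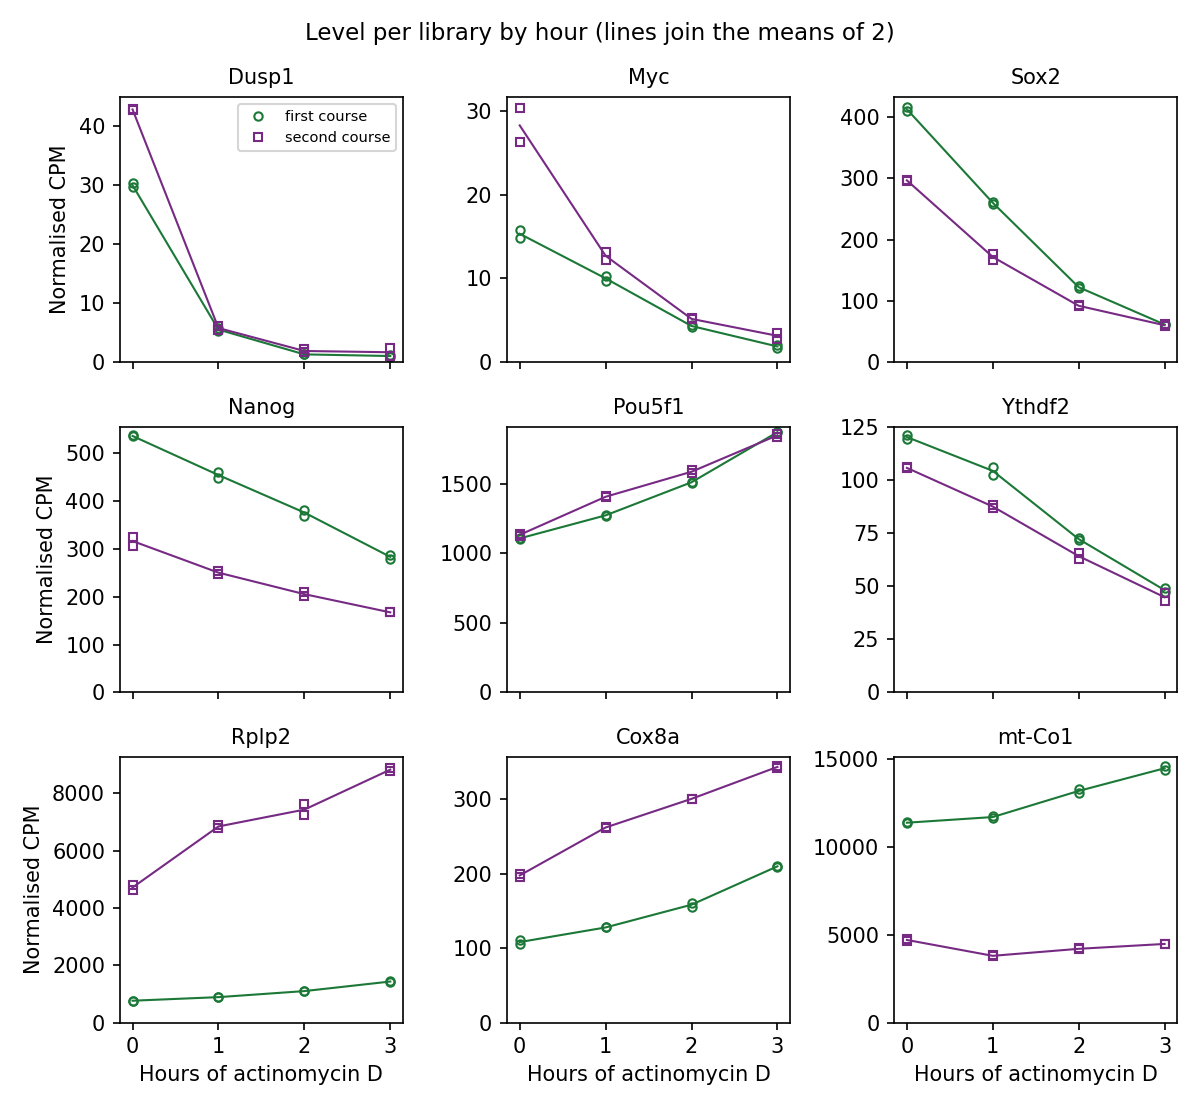
Normalised CPM of 9 genes in each library at 0, 1, 2 and 3 h of actinomycin D, first course in green circles and second in purple squares, with lines through the means of 2 libraries and each vertical axis starting at 0. Dusp1 lost most of its level within 1 h, Myc and Sox2 fell over 3 h, Nanog and Ythdf2 fell more slowly, Pou5f1, Rplp2 and Cox8a climbed on this relative scale, and mt-Co1 went up in the first course and slightly down in the second.

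In the formative list, which marks the step after naive pluripotency, 6 of 12 genes fell and 3 rose (50% and 25%, against 31.3% and 27.4% of all genes). Foxd3, a forkhead factor, changed by -3.31 ± 0.11 and -3.13 ± 0.12, Otx2 by -2.21 ± 0.14 and -1.35 ± 0.19, and Sox4 by -2.03 ± 0.09 and -1.68 ± 0.09. Pou3f1 changed by -2.88 ± 0.39 and -1.32 ± 0.42 at 0.156 to 2.01 CPM, and its call was lost with DESeq2 and without the second TBLC_Ctrl library at 3 h. The de novo methylation genes Dnmt3b and Dnmt3l changed by 0.64 and 0.60 in the first course and by 0.19 and 0.49 in the second, and had the opposite sign relative to ribosomal protein genes. Dnmt3b was no longer called by library totals. Dnmt3a, another de novo methylation gene of the list, changed by 0.05 ± 0.06 and -0.10 ± 0.07 and was called in neither course.

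In the primitive endoderm list 6 of 21 tested genes fell and 7 rose, shares of 28.6% and 33.3% that lay near those of all genes (31.3% and 27.4%). The falling members were Foxq1, Sox7, Sox17, Gata6 and Gata4, all transcription factors, and Fst, the secreted activin inhibitor follistatin. Gata6 stood at 1.18 and 0.829 CPM at 3 h and 5.60 and 6.55 CPM at 0 h in the first course and 1.23 and 1.30 CPM at 3 h and 6.65 and 6.31 CPM at 0 h in the second. Sox7 changed by -3.01 ± 0.34 and -3.40 ± 0.42, Sox17 by -2.16 ± 0.35 and -3.09 ± 0.68, Gata4 by -1.5 and -1.11 and Foxq1 by -4.31 ± 0.34 and -4.18 ± 0.43. Pdgfra, the receptor that marks the lineage, had -0.51 in the first course and -0.17 in the second and was not called in the second. The rising members were Sparc, Krt8, Col4a1, Col4a2, Lamb1, Nid2 and Lamc1, all genes of the matrix or basement membrane except the keratin Krt8. Sparc, a collagen-binding matrix protein, had 619 and 630 CPM at 3 h and 348 and 346 CPM at 0 h in the first course and 930 and 926 CPM at 3 h and 580 and 581 CPM at 0 h in the second. Relative to ribosomal protein genes the mean log2 change of Sparc over both courses was 0.01 and was not called, that of the other 6 was below 0, and the call of Lamc1 was also lost by library totals and in a fit of slopes. These 7 genes and Fst were picked after their values had been seen.

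Transcripts of the 2-cell list stayed near the centre. Of 21 tested genes 1 fell (4.76%) and none rose, against 31.3% and 27.4% of all genes, with medians of -0.02 and -0.14. However, 2 were called lower in the first course and 8 in the second, and relative to ribosomal protein genes 19 were called lower in each course. Zscan4c had 26.9 and 26.1 CPM at 3 h and 24.4 and 24.3 CPM at 0 h in the first course, and 74.9 and 74.8 CPM at 3 h and 79.9 and 78.5 CPM at 0 h in the second. Zscan4d changed by 0.04 and -0.14. The Zscan4 copies are near-identical, so the split of counts among them is uncertain.

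Transcripts of the m6A machinery itself mostly fell. Of 11 writers and erasers 10 fell and 1 rose (90.9% and 9.09%, against 31.3% and 27.4% of all genes). Cbll1, the ubiquitin ligase-like subunit of the writer complex also called Hakai, changed most, with 13.7 and 14.4 CPM at 3 h and 54.8 and 55.2 CPM at 0 h in the first course and 6.97 and 6.63 CPM at 3 h and 28.7 and 28.3 CPM at 0 h in the second. Rbm15, the adaptor that guides the writer to RNA, changed by -1.39 ± 0.08 and -0.90 ± 0.12, Rbm15b by -0.77 and -0.59, and Wtap, the scaffold of the complex, by -0.73 ± 0.03 and -0.83 ± 0.05. The catalytic pair and its large scaffold moved less. Mettl3 had 26.9 and 25.9 CPM at 3 h and 37.2 and 35.4 CPM at 0 h in the first course and 32.1 and 30.5 CPM at 3 h and 35.0 and 34.9 CPM at 0 h in the second. Its change of -0.17 ± 0.07 in the second course (adjusted p = 0.021 in edgeR) was lost with DESeq2 and without either TBLC_Ctrl library at 0 h or the second one at 3 h. Mettl14 changed by -0.35 and -0.36, Virma by -0.26 ± 0.04 and -0.34 ± 0.05, Zc3h13 by -0.35 and -0.56, and Mettl16, a separate methyltransferase, by -0.39 and -0.31. Of the erasers, Alkbh5 had 70.4 and 72.8 CPM at 3 h and 170 and 171 CPM at 0 h in the first course and 41.3 and 41.4 CPM at 3 h and 81.6 and 86.7 CPM at 0 h in the second. Fto rose, by 0.39 ± 0.04 and 0.20 ± 0.04, but not by library totals, and its mean change was -0.46 relative to ribosomal protein genes.

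Among 12 readers 6 fell and 2 rose (50% and 16.7%, against 31.3% and 27.4% of all genes). The 3 cytoplasmic YTH proteins were among the falling ones. Ythdf2, which hands m6A-marked RNA to deadenylation, had 47.3 and 49.0 CPM at 3 h and 121 and 119 CPM at 0 h in the first course and 46.6 and 43.0 CPM at 3 h and 106 and 106 CPM at 0 h in the second, a change of -1.32 ± 0.04 and -1.25 ± 0.05. Ythdf1 changed by -0.97 ± 0.03 and -1.04 ± 0.05 and Ythdf3 by -0.57 ± 0.03 and -0.68 ± 0.06. Ythdc2 changed by -0.41 and -0.45, a call lost without the second TBLC_Ctrl library at 3 h, and Prrc2a by -0.25 and -0.27. The nuclear reader Ythdc1 had 0.08 and -0.21 and Fmr1 0.28 and -0.20, and neither counts as fallen or risen. The Igf2bp proteins differed: Igf2bp1 fell, by -0.61 ± 0.02 and -0.41 ± 0.04, while Igf2bp2 was at 0.18 ± 0.04 and 0.01 ± 0.05. Igf2bp3 stood at 44.7 and 41.9 CPM at 3 h and 30.6 and 33.8 CPM at 0 h in the first course, and at 20.4 and 21.3 CPM at 3 h and 22.7 and 21.4 CPM at 0 h in the second. It was higher in the first course and not called in the second, where the libraries lay within a narrow range without overlap (-0.07 ± 0.08, edgeR adjusted p = 0.439). Hnrnpc, by 0.66 ± 0.02 and 0.51 ± 0.02, and Hnrnpa2b1, by 0.42 and 0.41, rose, with the opposite sign relative to ribosomal protein genes.

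Enzymes and cofactors of RNA decay were mixed. Of 54 tested genes 25 fell and 12 rose (46.3% and 22.2%, against 31.3% and 27.4% of all genes), with medians of -0.08 and -0.23. Their mean changes spanned -1.94 to 0.50, and the members named here are from the falling side. Cnot4, a ligase of the CCR4-NOT complex, changed by -1.78 ± 0.07 and -1.67 ± 0.08, and the decapping cofactor Dcp1a by -1.19 ± 0.05 and -1.37 ± 0.08.

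Most p53 targets fell, 17 of 24 (70.8%, against 31.3% of all genes), and 2 rose. Btg2, an antiproliferative cofactor of deadenylation, had 26.3 and 25.9 CPM at 3 h and 152 and 148 CPM at 0 h in the first course and 38.8 and 38.8 CPM at 3 h and 146 and 154 CPM at 0 h in the second. Plk2, a kinase induced by p53, changed by -2.66 ± 0.05 and -2.83 ± 0.05. Cdkn1a, the cell cycle inhibitor p21, had 87.3 and 86.8 CPM at 3 h and 366 and 370 CPM at 0 h in the first course, and 170 and 165 CPM at 3 h and 338 and 357 CPM at 0 h in the second. Of 19 integrated stress response genes 11 fell and 7 rose (57.9% and 36.8%, against 31.3% and 27.4% of all genes), with mean changes from -3.16 to 0.63. The members of this list with the largest changes, all falls, were Chac1, Cebpb, Cebpg and Ppp1r15a. They changed by -3.60, -2.71, -2.66 and -2.32 in the first course and by -2.73, -2.03, -1.49 and -1.74 in the second.

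Among lists of the cell cycle and of biosynthesis, several had shares near those of all genes, of which 31.3% fell and 27.4% rose. The members named here are from the falling side, also where more members rose, as in the replication and interferon lists. In the replication and G1/S list 6 of 32 genes fell and 18 rose (18.8% and 56.2%), with medians of 0.27 and 0.11, although relative to ribosomal protein genes all 32 were called lower in each course. The licensing factors Cdt1 and Cdc6 were on the falling side, Cdt1 at -1.74 ± 0.04 and -1.54 ± 0.04 and Cdc6 at -1.39 ± 0.06 and -0.95 ± 0.07. In the mitosis list 9 of 28 genes fell and 9 rose (32.1% each), with the kinase Aurka at -0.99 ± 0.04 and -0.81 ± 0.05. Of 22 cholesterol genes 6 fell and 7 rose (27.3% and 31.8%). In the interferon list 3 of 21 fell and 9 rose (14.3% and 42.9%), the largest fall being that of the regulator Irf1 at -2.44 ± 0.07 and -2.05 ± 0.10. Of 17 SR proteins and Clk kinases of splicing 4 fell and 5 rose (23.5% and 29.4%), with Clk1 at -1.12 ± 0.03 and -1.16 ± 0.05. Of 11 DNA methylation genes 4 fell and 4 rose (36.4% each), and the 5-methylcytosine oxidases Tet1, Tet2 and Tet3 were on the falling side at -1.0, -0.23 and -0.93 in the first course and -1.12, -0.86 and -0.68 in the second. The call of Tet3 was lost with DESeq2, in a fit of slopes over the 4 times and without the second TBLC_Ctrl library at 0 h or the first one at 3 h.

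The most stable class was led by transcripts of ribosomal proteins. Of 85 tested genes 82 rose and 1 fell (96.5% and 1.18%, against 27.4% and 31.3% of all genes), with medians of 0.80 and 0.70. Scaled to their own sum, which sets their centre near 0, 21 were called higher and 25 lower in the first course and 14 higher and 32 lower in the second. Their share of all counts was 11.8% and 11.9% at 3 h and 8.05% and 8.03% at 0 h in the first course, and 17.4% and 17.5% at 3 h and 12.5% and 12.5% at 0 h in the second. Rplp2, a stalk protein of the large subunit, had 1408 and 1459 CPM at 3 h and 767 and 760 CPM at 0 h in the first course, and 8785 and 8876 CPM at 3 h and 4790 and 4643 CPM at 0 h in the second. The level of Rplp2 differed between the courses by far more than its change, which was 0.91 ± 0.02 and 0.90 ± 0.02. Rplp1 changed by 0.86 ± 0.02 and 0.93 ± 0.02 and Rps24, of the small subunit, by 0.86 ± 0.02 and 0.83 ± 0.02. The exception was Rps10, counted at only 1.84 and 1.45 CPM at 3 h and 4.21 and 3.75 CPM at 0 h in the first course, with 24.0%, 32.1% and 41.3% left at 1, 2 and 3 h, and its call was lost in a fit of slopes over the 4 times.

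Ribosomal protein genes are known for starting transcription inside a run of pyrimidines (the 5' terminal oligopyrimidine motif), through which mTOR controls their translation. The start sites of 2 of them are shown with that of Ndufa1, a respiratory chain gene that rose, and with those of 3 of the genes with the largest falls, 15 bases either side of the start on the gene's strand, from RefSeq promoters of GRCm38.p6. Capitals mark runs of at least 8 C or T. Rps24 had 2 annotated starts, and the one with the longest run is shown. In the shares below, a gene with several starts counted if any of them held a run.
Rplp2 (chr7:141447636-141447665, + strand): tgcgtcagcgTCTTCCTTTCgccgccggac
Rps24 (chr14:24490663-24490692, + strand): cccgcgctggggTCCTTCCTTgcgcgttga
Ndufa1 (chrX:37191224-37191253, - strand): ggaccgcgaacgccagtcacttttgggccc
Dusp1 (chr17:26508458-26508487, - strand): gtcggacgagcgcgcagtgaaggactggcg
Ccn1 (chr3:145649971-145650000, - strand): gggctcccggcgctggggcagaccgtgagc
Dusp6 (chr10:99263216-99263245, + strand): acgctggctgtttgtatccattgaggagct
Such a run, searched on the gene's strand only, lay in the window of 28 of 64 ribosomal protein genes with an annotated start there (43.8%), and in 15.0% of the 10776 tested genes with one. The genes that rose held it in 14.4% of cases (436 of 3022) and those that fell in 14.8% (500 of 3387). Of all 27025 gene symbols with a promoter sequence 13.9% held it, and among 69 nuclear respiratory chain genes 13.0%.

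Nuclear genes of the respiratory chain rose too, on the scale of all genes. Of 83 tested genes 81 rose (97.6%, against 27.4% of all genes) and none fell (against 31.3%), with medians of 0.74 and 0.66. Relative to ribosomal protein genes 35 and 38 were called lower and 10 and 8 higher. Cox8a, a subunit of cytochrome oxidase, had 211 and 209 CPM at 3 h and 111 and 105 CPM at 0 h in the first course and 342 and 345 CPM at 3 h and 200 and 195 CPM at 0 h in the second. Ndufa1, an accessory subunit of complex I, had 72.9 and 72.2 CPM at 3 h and 38.5 and 38.0 CPM at 0 h in the first course and 76.7 and 81.1 CPM at 3 h and 41.9 and 41.9 CPM at 0 h in the second. No 3 h library overlapped a 0 h library in either gene. Atp5k of the ATP synthase changed by 0.87 ± 0.04 and 0.89 ± 0.04 and Ndufs5 by 0.81 ± 0.08 and 0.86 ± 0.05.

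Other housekeeping machineries rose on the same scale. Counts of members that rose and fell were 36 and 0 of 38 for the proteasome, 24 and 2 of 30 for the core spliceosome, 23 and 4 of 32 for translation factors, 21 and 3 of 26 for chaperones and 17 and 2 of 21 for glycolysis. In this order the shares that rose were 94.7%, 80.0%, 71.9%, 80.8% and 81.0%, against 27.4% of all genes. Those that fell were 0%, 6.67%, 12.5%, 11.5% and 9.52%, against 31.3%. Relative to ribosomal protein genes these directions turned: in the first course 35, 26, 30, 24 and 21 of the members of these lists were then called lower. Gapdh, the glycolytic enzyme often used as a reference, had 4972 and 4931 CPM at 3 h and 2978 and 3029 CPM at 0 h in the first course, and 2518 and 2520 CPM at 3 h and 1642 and 1645 CPM at 0 h in the second, a change of -0.08 relative to ribosomal protein genes. Eno1 and Tpi1 changed by 0.67 and 0.55 in the first course and 0.68 and 0.82 in the second. Snrpg and Snrpd2, Sm core proteins of the spliceosome, changed by 0.90 and 0.82 and by 0.75 and 0.79. The elongation factor subunit Eef1b2 was at 0.77 and 0.74, the initiation factor subunit Eif3k at 0.73 and 0.76, the proteasome subunits Psmb3 and Psma7 at 0.80 and 0.68 and at 0.61 and 0.59, and the disulfide isomerase Pdia3 at 0.78 and 0.67. Among the falling members of these lists, Eif1a, which scans for start codons, changed by -1.10 and -1.13 and the inducible chaperone cofactor Dnajb1 by -2.12 and -1.5.

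**Figure D3:**
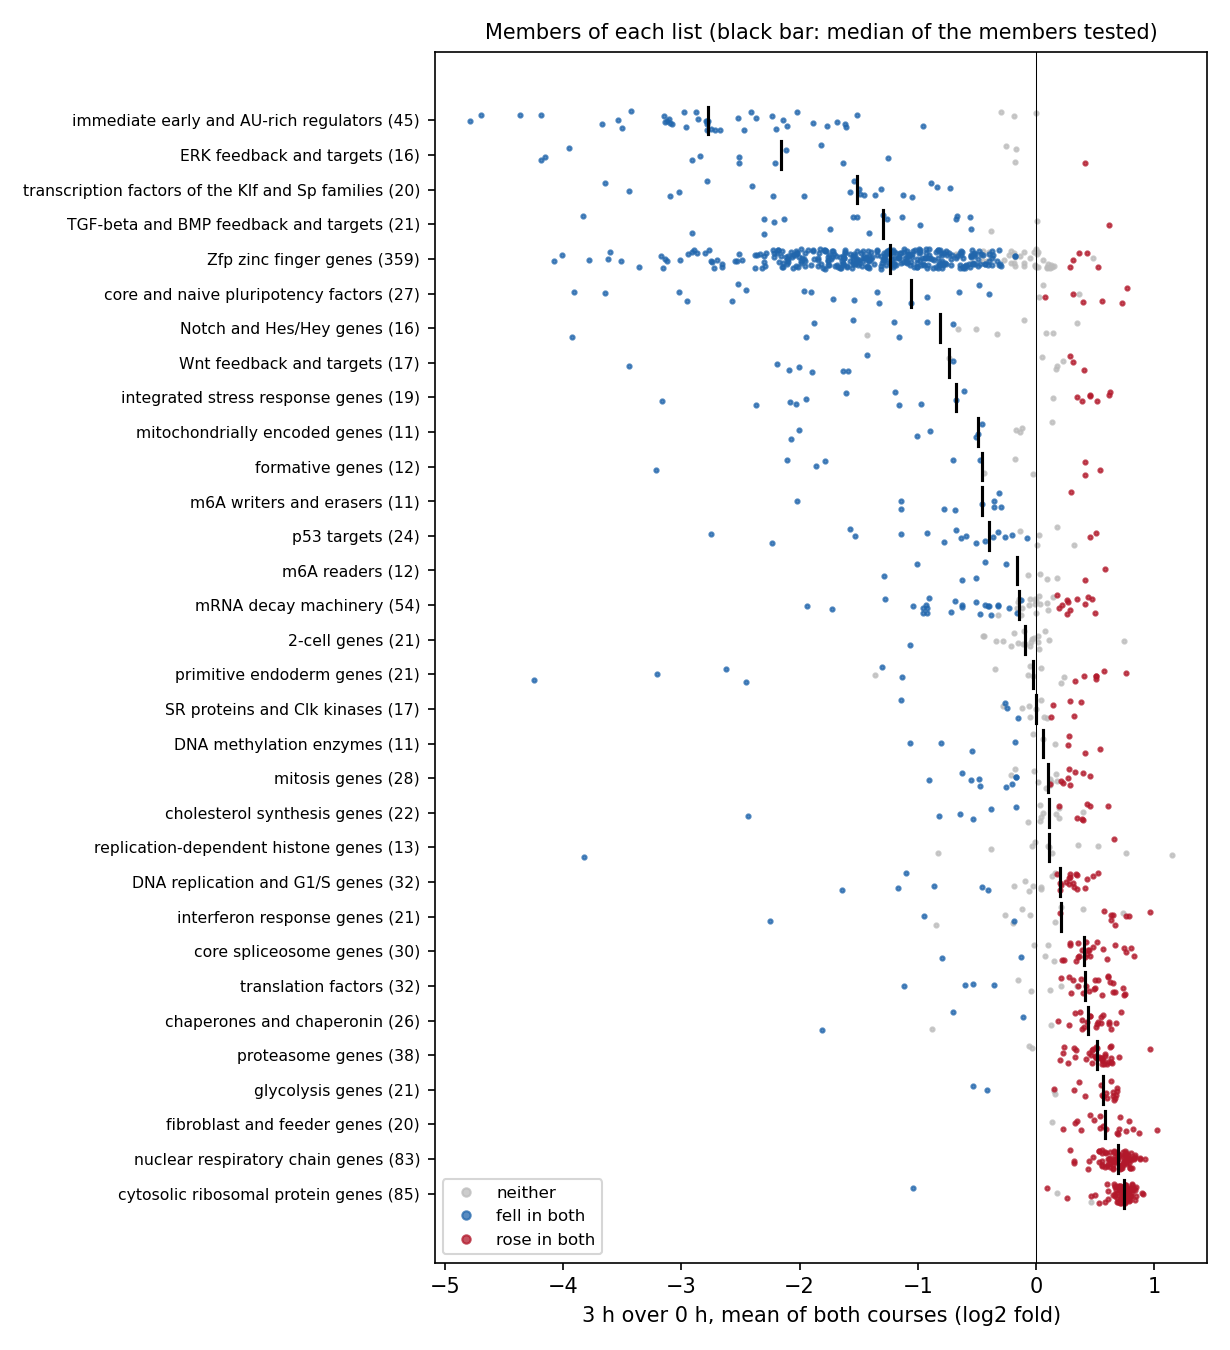
Mean log2 change of both courses, 3 h over 0 h, for each tested member of the 32 lists with at least 10 tested members, in blue where the gene fell in both courses, in red where it rose in both and in grey otherwise; the number of members is in brackets and black bars mark medians. Genes of the immediate early and AU-rich, ERK, Klf and Sp and Zfp lists lie mostly left of 0. Ribosomal protein, respiratory chain, fibroblast, glycolysis and proteasome genes lie mostly right of it on the scale of the centre of all genes. Relative to ribosomal protein genes the medians of all genes would lie near -0.79 and -0.71.

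Genes of the fibroblast and feeder list rose as a group, 19 of 20 (95%, against 27.4% of all genes), and none fell (against 31.3%). The medians were 0.63 and 0.56, while 11 were called lower in each course relative to ribosomal protein genes. Thy1, a surface protein of fibroblasts, had 41.1 and 39.6 CPM at 3 h and 22.4 and 22.4 CPM at 0 h in the first course and 86.2 and 86.6 CPM at 3 h and 47.0 and 46.7 CPM at 0 h in the second. Dcn, the matrix proteoglycan decorin, changed by 0.95 ± 0.05 and 0.68 ± 0.07, and Acta2, smooth muscle actin, by 0.84 ± 0.08 and 0.74 ± 0.04. The 12 largest rises at a mean log2 CPM of at least 3 were of genes outside this list. Dpt, a dermal matrix protein, was at 1.20 ± 0.12 and 0.77 ± 0.11. Cthrc1, a secreted collagen repeat protein, was at 1.11 ± 0.10 and 0.70 ± 0.07. These largest rises also held Ndufa4l2 at 0.50 ± 0.06 and 1.52 ± 0.11, Myl4 at 0.94 ± 0.09 and 0.92 ± 0.07, Arl3 at 1.00 ± 0.05 and 0.85 ± 0.05, Crabp1, a retinoic acid binding protein, at 0.81 ± 0.06 and 0.95 ± 0.05, and the pseudogene Rps18-ps6, whose reads may be shared with Rps18, at 0.98 ± 0.11 and 0.78 ± 0.05. The part of cell composition in these rises was not tested.

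The 7 genes that rose at least 2-fold were low. S100a4, a calcium-binding protein of fibroblasts and macrophages, had 4.62 and 4.15 CPM at 3 h and 2.01 and 2.38 CPM at 0 h in the first course and 10.4 and 11.5 CPM at 3 h and 5.34 and 5.39 CPM at 0 h in the second. The other 6 were Fcer1g, Mustn1, Dcst2, C2, Srpx and S100a8, whose calls were each lost under at least 1 alternative other than ribosomal scaling: with DESeq2 for Fcer1g, Dcst2, C2, Srpx and S100a8, and without the second TBLC library at 0 h for Mustn1. Just outside the class were Cd82, at 0.97 ± 0.25 and 0.99 ± 0.17, and Brd8dc, at 1.00 ± 0.24 and 1.17 ± 0.35. The call of Brd8dc was lost without the second TBLC_Ctrl library at 3 h.

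Transcripts encoded in mitochondria, made by a separate polymerase, differed among themselves and between the courses. Of 11 tested genes 7 fell (63.6%) and none rose, against 31.3% and 27.4% of all genes. mt-Nd2 had 622 and 598 CPM at 3 h and 2381 and 2259 CPM at 0 h in the first course and 615 and 615 CPM at 3 h and 2468 and 2751 CPM at 0 h in the second. mt-Nd1 changed by -0.85 ± 0.02 and -1.17 ± 0.02, and mt-Nd6, the gene on the light strand, by -1.49 ± 0.08 and -2.65 ± 0.05. mt-Co1 stood at 14376 and 14607 CPM at 3 h and 11426 and 11352 CPM at 0 h in the first course, and at 4487 and 4476 CPM at 3 h and 4645 and 4773 CPM at 0 h in the second, so that it was higher in the first and lower in the second. mt-Co2 was counted at under 15 CPM in every library compared and was not called. All mitochondrially encoded genes together took 2.38% and 2.39% of counts at 3 h and 3.14% and 3.12% at 0 h in the first course, and 1.42% and 1.42% at 3 h and 2.79% and 2.94% at 0 h in the second. Replication-dependent histone genes could hardly be judged, since 51 of 64 were below the count filter. Of the 13 tested, H2ac10 was the one that fell, at under 1.5 CPM in every library.

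The libraries at 1 h and 2 h were not compared in the choice of the genes, although they entered the same fits. In the first course 3089 of the 4263 genes that fell were also called lower at 2 h than at 1 h (72.5%), against 23.9% of all tested genes, and 5 were called higher. In the second course 2185 were called lower (51.3%, against 16.6% of all genes) and 2 higher. Of the 3736 genes that rose, 2605 were called higher at 2 h than at 1 h in the first course (69.7%, against 22.3% of all genes) and 3 lower, and 1564 in the second (41.9%, against 12.9%) and none lower. Median changes from 1 h to 2 h were -0.30 and -0.24 for the genes that fell and 0.18 and 0.11 for those that rose, over 1 of the 3 h.

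RNA immunoprecipitations from diffTBLC gave a readout that did not use these libraries. Transcripts that fell after actinomycin D in undifferentiated cells were more abundant in Ythdf2 IP than in input, and those that rose were less abundant. Ythdf2 IP was above input for 2833 of 4049 genes that fell (70.0%), for 1053 of 1269 that fell at least 2-fold (83%) and for 470 of 3586 that rose (13.1%), against 40.2% of all 12364 tested genes. It was below input for 524 of the genes that fell (12.9%) and 2613 of those that rose (72.9%), against 38.8% of all tested genes. The median log2 ratio of IP over input was 1.45 for the 2-fold falls, 0.97 for all falls and -0.90 for the rises, against 0.02 over all genes, and the medians of the 2 replicate pairs differed by little (SD 0.03, 0.02 and 0.01). The Ythdf2 inputs were the shallowest libraries, at 2483808 and 2936270 counts.

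For Igf2bp3 the median of the falls was also above that of the rises. Its IP was above input for 1990 of 4151 genes that fell (47.9%), for 577 of 1334 that fell at least 2-fold (43.3%) and for 865 of 3646 that rose (23.7%), against 35% of all 12904 tested genes. It was below input for 24.7% of the genes that fell and 56.3% of those that rose, against 34.8% of all tested genes. The medians were 0.18 for the 2-fold falls, 0.21 for all falls and -0.36 for the rises, against -0.01 over all genes. Level moved with the class: with the 13632 genes cut by level into 3 groups of 4544, 22.7% fell and 9.79% rose in the lowest group, 40.1% and 26.1% in the middle group and 31.0% and 46.3% in the highest. The Ythdf2 medians were 1.26 for falls and -1.13 for rises in the lowest group, 0.98 and -0.96 in the middle group and 0.77 and -0.83 in the highest.

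**Figure D4:**
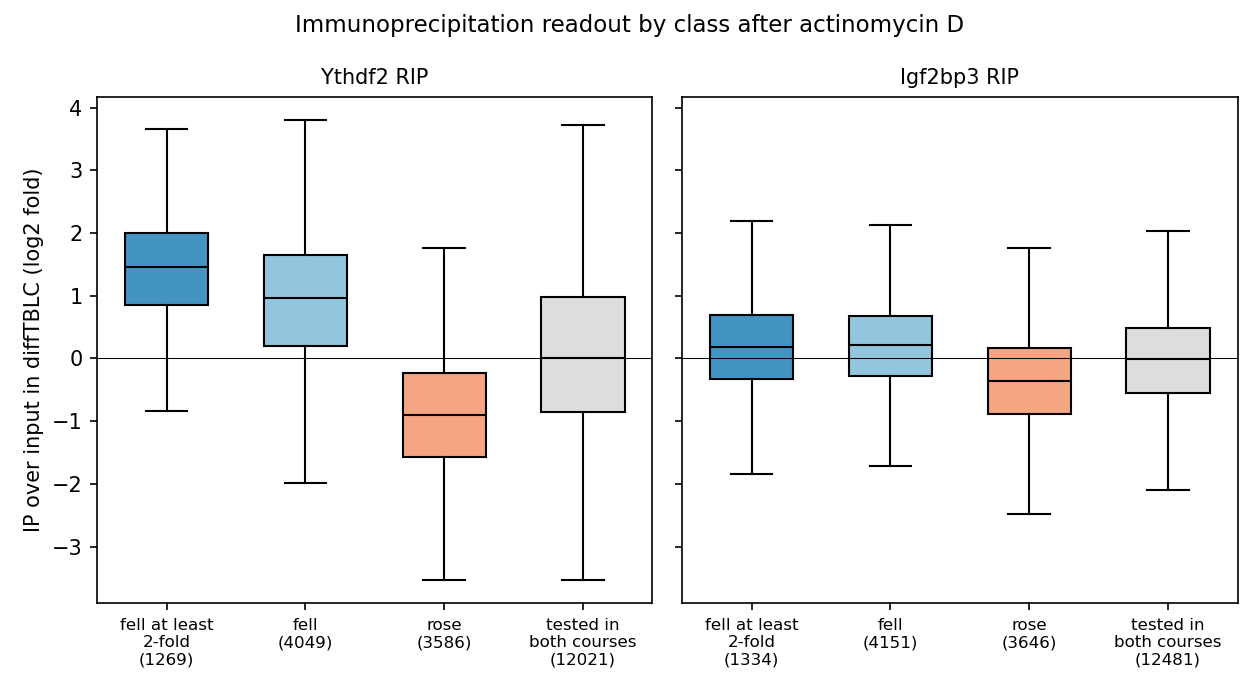
Log2 ratio of IP over input in diffTBLC for Ythdf2 (left) and Igf2bp3 (right), by the class of the gene after actinomycin D in undifferentiated TBLC, with gene numbers in brackets; boxes span the quartiles around the median, and whiskers reach the last value within 1.5 box lengths. The Ythdf2 medians run from 1.45 for at least 2-fold falls to -0.90 for rises, and the Igf2bp3 medians from 0.18 to -0.36.

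Single genes did not all go with their class. Among the falls, Dusp1 (2.25), Mycn (2.24), Nodal (1.95), Klf4 (1.56) and Sox2 (1.32) had Ythdf2 log2 ratios above 0, and so did Ythdf2 (1.92) and Ythdf1 (2.26) themselves. Fos was at 0.03 and Ccn1 at -0.29, and neither was called. Nanog, which fell, was depleted in both IPs, at -1.0 for Ythdf2 and -1.15 for Igf2bp3, as was Clk1 at -1.10 and -0.97. Among the rises, Rplp2 was at -2.86 and -1.83, Cox8a at -2.74 and -1.59, Gapdh at -3.01 and -0.02 and Pou5f1 at -1.72 and -1.06. In the Igf2bp3 IP Egr1 was at 1.21, Cbll1 at 1.45 and Tet1 at 1.53, and these 3 also fell after the block. An IP with a control antibody was not used here, and binding was measured in a different cell state from decay.

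Sizes differed between the courses for many genes. In a joint fit the change differed between them for 3613 genes in which the second course was below the first (25.1%) and 681 in which it was above (4.74%) of 14373. The median difference of all genes was -0.11 in this fit. With each course scaled by its own factors, an alternative added after seeing the data, the counts were 2168 below and 1161 above, and without either TBLC library at 0 h they were 1204 and 1181 below and 1380 and 1367 above. The labels give no preparation batch, so course and batch cannot be told apart.

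Of the genes furthest apart, several were called in 1 course only or with opposite signs. Ptgs2, the inducible cyclooxygenase, had 42.0 and 41.7 CPM at 3 h and 102 and 104 CPM at 0 h in the second course, and 71.6 and 77.1 CPM at 3 h and 72.0 and 70.0 CPM at 0 h in the first. Its difference of changes was -1.45 in the joint fit, from which the other differences here come too. Dgke, a diacylglycerol kinase, differed by -1.31 and Pdpr by -1.36, with Pdpr counted at 1.70 to 4.67 CPM in the second course and 15.7 to 19.8 CPM in the first. Elk4, a partner of serum response factor, differed by -1.22, mt-Nd6 by -1.24 and Ccn1 by -1.21. In the other direction Zfp296 fell less in the second course, to 13.0 and 12.5 CPM at 3 h, against 81.5 and 74.8 CPM at 0 h, than in the first, to 3.54 and 3.37 CPM against 59.6 and 59.0 CPM, a difference of 1.40. Tob2, an antiproliferative cofactor of deadenylation, differed by 1.17, the receptor Fzd10 by 1.04 and Cebpg by 1.09. Leng9 and Cox17 differed by 1.68 and 1.28 and also in level: Leng9 had 17.5 and 19.8 CPM at 3 h and 16.6 and 16.1 CPM at 0 h in the second course, and 0.707 and 0.311 CPM at 3 h and 1.53 and 1.53 CPM at 0 h in the first.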

How the data were processed

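Libraries were made from total RNA extracted with TRIzol, per the labels' protocols, which name a pair of kits and a pair of instruments; which library used which is not given in the sources used here. The deposited tables hold raw read counts per gene made by the authors. The submitters' processing notes name the build mm39 and, as tools, STAR 2.7.11b, FastQC 0.12.1, Subread, Trim Galore and DESeq2. The strand setting of the counting and the treatment of shared reads are not given, so overlapping genes and close paralogs are uncertain.

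From these counts, each course was fitted on its 8 libraries (4 times, 2 libraries each) with edgeR 4.0.16 in R 4.3.3: filterByExpr on the time groups, TMM factors, the quasi-likelihood test and Benjamini-Hochberg adjustment at 0.05. The difference between courses came from a joint fit, and IP was compared with input in the same way. CPM values use TMM library sizes, so a value in CPM is relative to the centre of all transcripts. DESeq2 1.42.0, other scalings and other subsets of libraries were alternatives. Scripts were tested on simulated data. Figures were drawn with matplotlib 3.10.9 in Python 3.11.15.

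The genes, the 33 lists and the tests were chosen with earlier results of these data known. Named genes were the 12 largest falls and 12 largest rises of the genes called in both courses without overlap and averaging 3 or more in log2 CPM, up to 4 called members per list with the largest changes, all members of lists of 12 or fewer, a few anchors (Nanog, Pou5f1, Sox2, Myc, Virma, Mettl3, Igf2bp3 and Ythdf2), genes beside the 2-fold limits and the 6 furthest apart between courses each way. Not all of these are printed, some results are not reported here, and genes from outside the rule are said to be so or come from the cell type markers. Replicate numbers did not pair the libraries (correlations of deviations from -0.02 to 0.03). A set of 8 columns in the second table matched no label and was not used. The m6A peaks were not analysed here.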

Additional observations from a re-analysis of the deposited data

Results flagged for a closer look

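The change from 0 h to 3 h was compared between the courses in a joint edgeR fit, and 80 of 156 genes chosen for the text differed. With each course scaled by its own factors, an alternative added after seeing the data, 58 still did, 34 of them lower in the second course and 24 higher. Among all 14373 genes of the joint fit, 25.1% were called lower in the second course and 4.74% higher. With own factors 2168 of all genes were called lower and 1161 higher. The genes chosen for the text include those picked for being furthest apart between the courses. Their share is therefore raised by the choice and is no test against all genes. The values that follow are differences of the log2 changes, second course minus first, as estimated in the joint fit. In that fit the median difference of all genes was -0.11, against -0.02 with each course scaled by its own factors. Each value printed lies below the one with own factors, as for Gapdh at -0.19 against -0.11. The differences below 0 were Ptgs2 -1.45, Pdpr -1.36, Dgke -1.31, mt-Nd6 -1.24, Elk4 -1.22, Ccn1 -1.21, Tet2 -0.71, Igf2bp3 -0.59, Fmr1 -0.57, Lamc1 -0.56, Jun -0.55 and Dnmt3b -0.54. A middle group held Dpt -0.52, mt-Co1 -0.51, Cthrc1 -0.50, Col4a1 -0.42, mt-Nd1 -0.41, Ythdc1 -0.37, Dcn -0.35, Col4a2 -0.33, Nid2 -0.31, Zc3h13 -0.29 and Zscan4c -0.29. The smallest of them were Fto -0.28, Psmb3 -0.27, Sparc -0.26, mt-Nd2 -0.25, Cox8a -0.24, Hnrnpc -0.24, Snrpg -0.23, Dppa5a -0.23, Tet1 -0.21, Pdia3 -0.19 and Gapdh -0.19. Above 0 were Leng9 1.68, Zfp296 1.40, Cox17 1.28, Tob2 1.17, Cebpg 1.09, Nrarp 1.06, Fzd10 1.04, Cdkn1a 0.93, Ndufa4l2 0.93, Bambi 0.86, Otx2 0.78 and Nodal 0.76. The remainder were Dnajb1 0.54, Pim3 0.53, Ppp1r15a 0.49, Btg2 0.48, Socs3 0.44, Rbm15 0.40, Klf2 0.38, Sox2 0.35, Cdc6 0.35, Rabif 0.25, Tpi1 0.18 and Igf2bp1 0.12. Course, library preparation and cell composition cannot be told apart.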

How the results depend on the processing

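Scaling moved the results most. Relative to ribosomal protein genes, 12427 genes fell and 61 rose in the first course, 11689 and 59 in the second, 11146 and 16 in both, 4071 fell at least 2-fold and 0 rose so; by library totals 2879 rose in the first course, 2379 in the second, 1889 in both and 2 at least 2-fold. DESeq2 left 3 rises of at least 2-fold; all 3556 falls and 3157 of 3158 rises it called in both courses were shared with edgeR. Ribosomal scaling reversed the mean change of Eif3k (-0.00564), Gapdh (-0.0811), Eno1 (-0.0749), Tpi1 (-0.0669), Psmb3 (-0.0434), Psma7 (-0.11), Pdia3 (-0.0278), Pou5f1 (-0.0180), Dnmt3b (-0.34), Dnmt3l (-0.21), Fto (-0.46), Hnrnpc (-0.16), Hnrnpa2b1 (-0.33), Igf2bp3 (-0.57), Igf2bp2 (-0.66), Fmr1 (-0.71), Zscan4c (-0.73), mt-Co1 (-0.61), Col4a1 (-0.239), Col4a2 (-0.245), Krt8 (-0.171), Lamb1 (-0.242), Lamc1 (-0.419) and Nid2 (-0.347); the construction of that scale lowers every gene. The difference between courses was called below and above 0 for 2286 and 1120 genes with RLE scaling, 2050 and 1213 by library totals, 1122 and 1928 by ribosomal scaling, 1077 and 1820 without a filter, and 2168 and 1161 with each course's own factors; DESeq2 called 1529 below. Leaving out 1 library gave 1181 to 3592 below and 425 to 1380 above, the lowest counts below being 1204 and 1181 without TBLC 0 h replicate 1 or 2 and 425 above without TBLC_Ctrl 3 h replicate 2. For 2 h against 1 h, library totals called 1587 and 693 of the rises higher (first and second course), and in the second course DESeq2 called 1207 falls lower and 909 rises higher. Without a filter the RIP medians relative to all genes were 0.32 and -0.23 for Igf2bp3 and 0.90 and -0.96 for Ythdf2 (falls and rises). The cause of these moves was not tested.

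Leaving out 1 library in turn gave 3871 to 4270 falls and 3391 to 3743 rises in both courses, 1341 to 1411 falls of at least 2-fold and 6 to 8 such rises; in the first course 4893 to 5292 fell and 4513 to 4930 rose, in the second 4260 to 4854 and 3827 to 4456. With the replicate block none of 168 gene calls changed and the counts moved little: 4260 fell and 3744 rose in both courses, 1396 fell and 8 rose at least 2-fold, and the courses differed for 3653 genes below 0 and 694 above; the numbers did not pair the libraries. All 16 libraries of the table were fitted for the first course only; for the second this was not run. With 2 libraries a group, and no spike-in, low genes and absolute decay rates are poorly resolved.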
